A study of Mus musculus with 19 samples.

Results

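A set of 10 genes that the Wnt pathway switches on, as brakes on the signal or as direct targets, was followed across 10 mouse liver tumours driven by an activated beta-catenin and MYC. The genes were chosen by name from a list (Axin2, Nkd1, Notum, Znrf3, Rnf43, Lgr5, Sp5, Tnfrsf19, Lect2 and Tbx3) and make up 10 of the 39179 gene identifiers in the table. All 10 were found by symbol and passed the filter on low counts, with between 366 reads, for Tnfrsf19, and 12441 reads, for Lect2, in a single tumour.

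The tumours came from adult male mice on a mixed background that carried Ctnnb1tm1Mmt as a heterozygous allele and Gt(ROSA)26Sortm1(MYC)Djmy as a homozygous allele, induced with AAV8.TBG.PI.Cre.rBG at 640000000 genome copies per mouse. The first allele loses a floxed exon that holds the sites marking beta-catenin for destruction, and the second expresses human MYC once Cre has removed a stop cassette. The TBG promoter limits Cre to hepatocytes, and the low dose recombines scattered single cells, so nodules grow from scattered founders in a liver that is otherwise unrecombined. Whole snap-frozen tumours were sequenced, and vessels, stroma and blood are part of each library.

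The labels hold 13 tumours, 3 control livers and 3 livers with a high virus dose, but a column was matched to a sample only for the 10 tumours numbered 04 to 13, on the assumption that the number in the column name is the tumour number. No control was therefore compared, and every value below describes differences among tumours. The column names also carry a tag that the labels do not explain. Tags beginning RMH4 mark tumours 04 to 06 (n = 3), those beginning RMH18 mark tumours 07 and 08 (n = 2) and those beginning RMH35 mark tumours 09 to 13 (n = 5). These 3 beginnings, called tag families below, pool 5 distinct tags (RMH4_5b, RMH4_5c, RMH18_1d, RMH35_1b and RMH35_1c). Tumours that share a tag may come from 1 mouse, in which case the p-values below are too small. Libraries held between 11687034 gene counts (tumour 07) and 36964427 (tumour 13).

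In the canonical Wnt pathway, beta-catenin that escapes a cytoplasmic destruction complex enters the nucleus and joins TCF and LEF factors at target promoters. Several targets feed back on the signal. Axin2 rebuilds the destruction complex, Nkd1 binds the signal transducer Dishevelled, Notum is a secreted enzyme that strips a lipid from Wnt ligands, and Znrf3 and Rnf43 are membrane ubiquitin ligases that remove Frizzled receptors. Lgr5 is a receptor for R-spondins, which hold those 2 ligases in check. In healthy liver the pathway is active in the hepatocytes around the central vein and holds periportal genes down.

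The promoter sequence was at hand for 6 of the 10 genes, in 8 windows that run from 250 bases before to 50 bases after a RefSeq start (GRCm38.p6). A TCF/LEF core motif, ATCAAAG or its reverse complement CTTTGAT, stood in 3 of these windows, and in 3.73% of all 32851 windows of the same length. The 3 windows that hold it, of Sp5, Lect2 and Tnfrsf19, are shown. Capitals mark the motif, each sequence is on the strand of its gene, and the places are chr2:70474673-70474972 (plus strand), chr13:56548489-56548788 (minus strand) and chr14:61037938-61038237 (minus strand, the second of the Tnfrsf19 starts).
Sp5: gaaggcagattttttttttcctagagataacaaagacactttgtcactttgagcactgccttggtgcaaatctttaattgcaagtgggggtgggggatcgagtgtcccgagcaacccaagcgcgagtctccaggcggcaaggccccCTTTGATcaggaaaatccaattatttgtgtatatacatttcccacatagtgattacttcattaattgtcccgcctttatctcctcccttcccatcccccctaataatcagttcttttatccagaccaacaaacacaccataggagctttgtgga
Lect2: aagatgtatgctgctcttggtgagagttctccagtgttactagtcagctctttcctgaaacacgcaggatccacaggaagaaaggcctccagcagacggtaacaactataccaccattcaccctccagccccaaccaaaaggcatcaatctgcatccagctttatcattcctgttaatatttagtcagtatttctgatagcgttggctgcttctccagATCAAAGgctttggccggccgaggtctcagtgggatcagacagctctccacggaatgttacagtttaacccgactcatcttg
Tnfrsf19: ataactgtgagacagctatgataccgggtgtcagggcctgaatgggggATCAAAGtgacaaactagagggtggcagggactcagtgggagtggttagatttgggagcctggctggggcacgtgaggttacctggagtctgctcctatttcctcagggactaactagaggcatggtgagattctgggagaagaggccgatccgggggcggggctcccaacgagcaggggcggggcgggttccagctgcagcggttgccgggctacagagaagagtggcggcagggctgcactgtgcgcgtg
The core motif began 104 bases before the start in Sp5, 32 bases before it in Lect2 and 202 bases before it in Tnfrsf19. A wider form of the motif, in which each of the first 2 bases may be either adenine or thymine, on either strand, stood in the same 3 windows and in 16.9% of all windows, with 1 further match in Sp5, AACAAAG, 222 bases before the start. No match of either form was present in the windows of Axin2, Nkd1, Rnf43 or the first start of Tnfrsf19, which says only that these letters are not in those 300 bases.

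Levels are given as CPM, the reads of a gene among 1000000 reads counted, after scaling for library composition. Axin2 (chromosome 11, 108917828 to 108950783), the usual readout of the pathway, had its lowest level of 93.0 CPM in tumour 09, a median of 158 CPM and its highest level of 234 CPM in tumour 07. The mean was 162 ± 43.7 CPM (SD, n = 10). Nkd1 (chromosome 8, 88521342 to 88594887) varied most, from 105 CPM in tumour 06 over a median of 259 CPM to 595 CPM in tumour 10, which is 5.68-fold. The range of Axin2 was 2.52-fold, less than that of Nkd1.

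Among the brakes that act at the cell surface, Notum (chromosome 11, 120653788 to 120661193) ran from 73.9 CPM in tumour 06 over a median of 136 CPM to 270.02 CPM in tumour 07. Znrf3 (chromosome 11, 5276329 to 5444847) ran from 32.9 CPM in tumour 06 over a median of 62.1 CPM to 88.7 CPM in tumour 07. Rnf43 (chromosome 11, 87663087 to 87735539) ran from 69.5 CPM in tumour 06 over a median of 161 CPM to 261 CPM in tumour 11. These 3 genes were lowest in the same tumour, and Rnf43 in tumour 07, at 255 CPM, was close to its maximum.

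Of the receptors, Lgr5 (chromosome 10, 115450314 to 115587780) had a lowest level of 33.7 CPM in tumour 09, a median of 50.8 CPM and a highest level of 117 CPM in tumour 07. Tnfrsf19 (chromosome 14, 60963834 to 61046855), a receptor of the tumour necrosis factor family, ran from 22.3 CPM in tumour 06 over a median of 60.2 CPM to 85.5 CPM in tumour 07. Sp5 (chromosome 2, 70474923 to 70477726), a zinc finger transcription factor, lay between 31.3 CPM in tumour 06 and 54.6 CPM in 9 tumours and reached 97.0 CPM in tumour 07. For all 3 genes tumour 07 was the highest.

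Lect2 (chromosome 13, 56529734 to 56548559), a protein that hepatocytes secrete, ran from 125 CPM in tumour 05 over a median of 363 CPM to 593 CPM in tumour 07. Tbx3 (chromosome 5, 119670534 to 119684724), a T-box transcription factor, ran from 113 CPM in tumour 09 over a median of 152 CPM to 250.4 CPM in tumour 05, with the other 9 tumours at or below 166 CPM. The tumour with the most Tbx3 was therefore the one with the least Lect2.

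**Figure D1:**
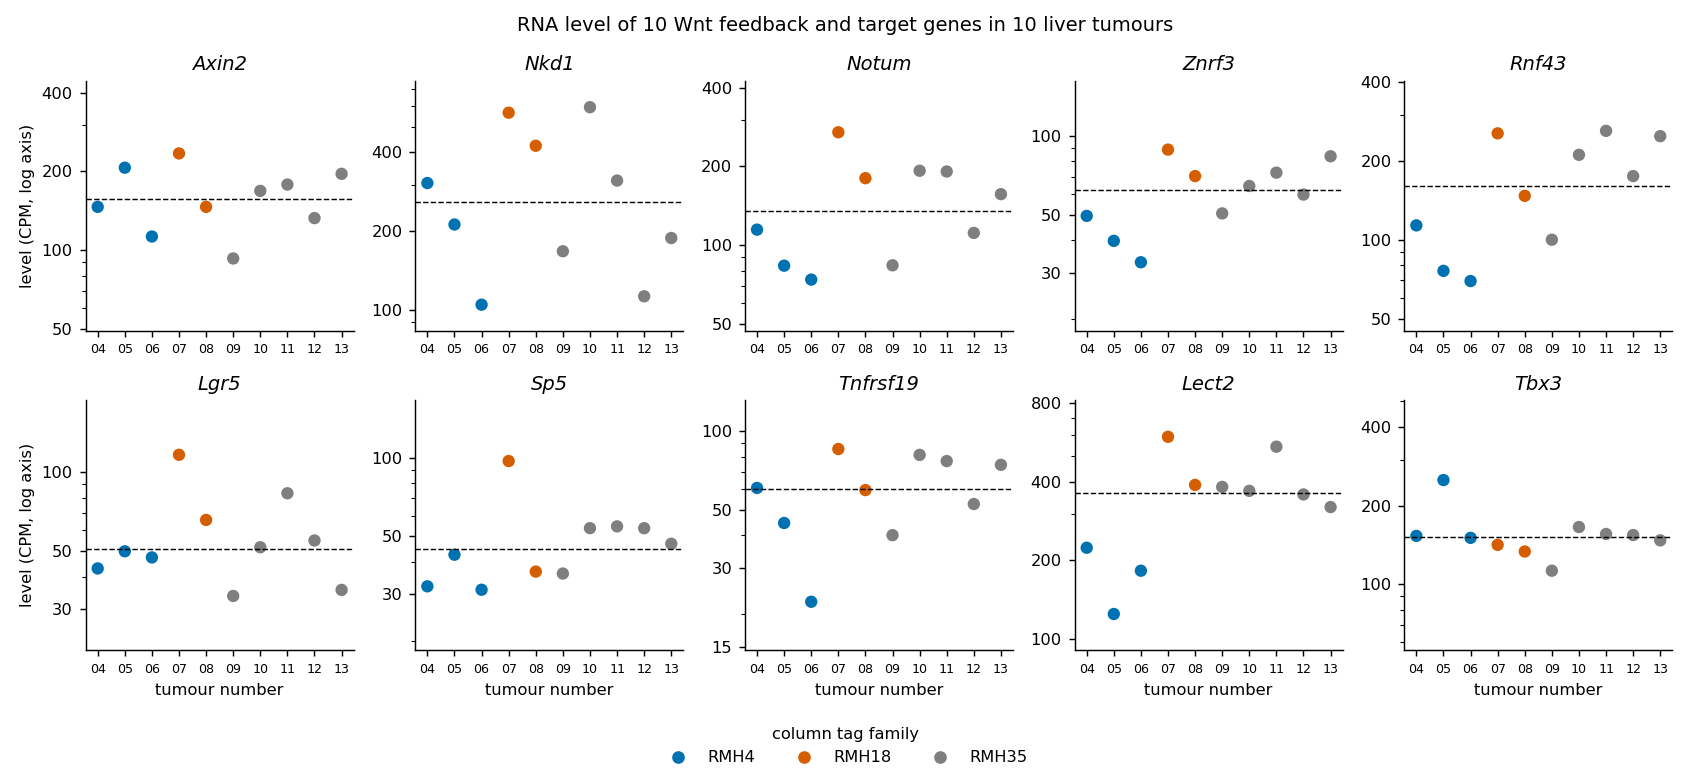
Level of each gene (CPM, log axis spanning the same fold in every panel) in tumours 04 to 13. Points are tumours coloured by column tag family and the dashed line is the median. Tumour 07 is the highest for 7 of the 10 genes and tumour 06 the lowest for 6, while Tbx3 stands apart in tumour 05 at 250.4 CPM. The same counts over all genes were not made.

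Levels of different genes were compared per kilobase of merged exons. Lect2 was the highest at 194 ± 81.9 CPM per kilobase (SD, n = 10) and was above Nkd1, the next gene, in 10 of 10 tumours, by 5.35-fold in the means. Nkd1 at 36.2 ± 21.5, Notum at 27.4 ± 11.9, Rnf43 at 25.2 ± 11.4, Axin2 at 23.3 ± 6.31, Sp5 at 22.7 ± 9.04 and Tbx3 at 19.0 ± 4.38 CPM per kilobase followed, and each pair of neighbours in that order kept its order in only 6 or 7 of 10 tumours. Tbx3 was above Tnfrsf19 in 10 of 10 tumours with no overlap of the ranges. Tnfrsf19 at 8.03 ± 2.72 and Znrf3 at 7.63 ± 2.27 CPM per kilobase could not be ordered, with Tnfrsf19 higher in 5 of 10 tumours, and Lgr5 was the lowest at 5.67 ± 2.45, below Znrf3 in 8 of 10 tumours.

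The SD of log2 CPM over tumours, a measure of how much a gene differs between them, had a median of 0.57 over the 10 genes and 0.33 over all 12462 genes tested. It was 0.89 for Nkd1, above 92.8% of genes, and 0.73 for Rnf43, 0.70 for Lect2 and 0.63 for Notum. It was 0.41 for Axin2, above 64.4% of genes. Tbx3, at 0.29, varied less than the median gene.

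Tumour 07 held the highest level of 7 genes (Axin2, Notum, Znrf3, Lgr5, Sp5, Tnfrsf19 and Lect2), and its 10 genes lay on average 0.77 above their means on the log2 scale. Tumour 06 held the lowest level of 6 genes (Nkd1, Notum, Znrf3, Rnf43, Sp5 and Tnfrsf19), with an average deviation of -0.74. Tumours 10 and 11 were above the median for 10 of 10 genes and tumour 09 for 1. The same counts over all genes were not made, so these do not set the 10 genes apart from other genes. Tumour 07 also had the most counts from blood markers, 6210 CPM summed over 5 globin and haem genes against a median of 239 CPM, the most from endothelial markers, 353 CPM against a median of 120.1 CPM, and the fewest total counts. RNAs without a poly(A) tail, which an mRNA kit should leave out, summed to 62.8, 47.5 and 83.0 CPM before scaling in tumours 05, 06 and 07 and to between 2.09 and 7.77 in the other 7. The libraries with the highest and the lowest levels were thus both among the 3 that stood apart by this measure, and its part in the levels was not tested.

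Hepatocyte RNA was present in every tumour, which does not show the cell a tumour came from. All 8 hepatocyte markers were counted in every tumour and summed to between 35761 CPM (tumour 05) and 53939 CPM (tumour 12). Stellate cell and fibroblast markers summed to between 208 CPM (tumour 12) and 1405 CPM (tumour 09), macrophage markers to between 88.7 CPM (tumour 10) and 274 CPM (tumour 06), and cholangiocyte markers to between 13.7 CPM (tumour 13) and 146 CPM (tumour 09), with Cftr at 0 counts in 2 tumours. Lymphocyte markers stayed at or below 5.45 CPM, with Ncr1 at 0 counts in 5 tumours. Markers of cycling cells summed to between 123 CPM (tumour 04) and 327 CPM (tumour 08). In whole tumours, fewer cells of a type and less RNA per cell cannot be told apart.

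The next question was whether the 10 genes move together from tumour to tumour. Pearson's r of log2 CPM was above 0 in 39 of the 45 pairs, with a median of 0.58, over 10 tumours that share tags and differ in depth. Between the 10 genes and all other genes 49.2% of r were above 0, and the median r of each gene with all others lay between -0.020 and 0.0097. The closest pair was Znrf3 and Rnf43, the related ubiquitin ligases, with r = 0.94. Ranked by r with Znrf3, Rnf43 was gene 3 of 12461, and ranked by r with Rnf43, Znrf3 was gene 13. Znrf3, Rnf43, Notum and Tnfrsf19 formed a block, picked after the values were seen, in which all 6 pairs had r between 0.88 and 0.94. Each of these 4 genes had the other 3 among the 1% of all genes most like it. In the 7 tumours with few RNAs without a poly(A) tail, the 6 pairs lay between 0.67 and 0.89.

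Nkd1 was close to Notum (r = 0.81) and Tnfrsf19 (r = 0.75) and less so to Rnf43 (r = 0.52). Lect2 followed Znrf3 (r = 0.82) and Rnf43 (r = 0.82) and Sp5 followed Notum and Rnf43 (r = 0.74 for each) and Lgr5 (r = 0.73). Without tumour 07 the r of Lgr5 and Sp5 was 0.41. In the 7 tumours with few RNAs without a poly(A) tail, r was 0.71 for Nkd1 and Notum, 0.16 for Nkd1 and Rnf43, 0.44 for Lect2 and Znrf3 and 0.48 for Lect2 and Rnf43. Sp5 had r = 0.48 with Notum, 0.43 with Lgr5 and 0.84 with Rnf43 there. Axin2, the usual readout, had r between 0.12, for Lect2, and 0.68, for Tnfrsf19, and a median of 0.55 with the other 9 genes. The r of Axin2 and Lect2 ran from -0.14, without tumour 07, to 0.52 when each tumour was left out. In the same 7 tumours Axin2 had r = 0.95 with Tnfrsf19, 0.84 with Rnf43, 0.83 with Notum and 0.77 with Znrf3, against 0.68, 0.54, 0.64 and 0.53 in all 10, and 0.40 with Nkd1, 0.37 with Lgr5 and 0.062 with Lect2. Over all 10 tumours Notum had the highest such median, 0.77.

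Over all 10 tumours Tbx3 did not follow most of the other targets. Its r was -0.64 with Lect2, -0.34 with Znrf3 and 0.54 with Axin2, and its median with the other 9 genes was -0.02. When each tumour was left out in turn, the r with Lect2 ranged from -0.71 to -0.16, that with Znrf3 from -0.51 to 0.054 and that with Axin2 from 0.30, without tumour 09, to 0.71. By ranks, Spearman's rho of Tbx3 and Axin2 was 0.31. In the 7 tumours with few RNAs without a poly(A) tail, which leave out tumour 05, Tbx3 had r = 0.81 with Tnfrsf19, 0.77 with Axin2, 0.66 with Rnf43, 0.60 with Notum and Sp5, 0.32 with Znrf3 and -0.08 with Lect2. Within tag families, as deviations from the family means, Tbx3 and Axin2 had r = 0.78 and Tbx3 and Lect2 r = -0.40. There, 43 of 45 pairs were above 0, against 48.9% of r with all other genes, and Lect2 lost most of its likeness to Znrf3 (r = 0.29 against 0.82 before).

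**Figure D2:**
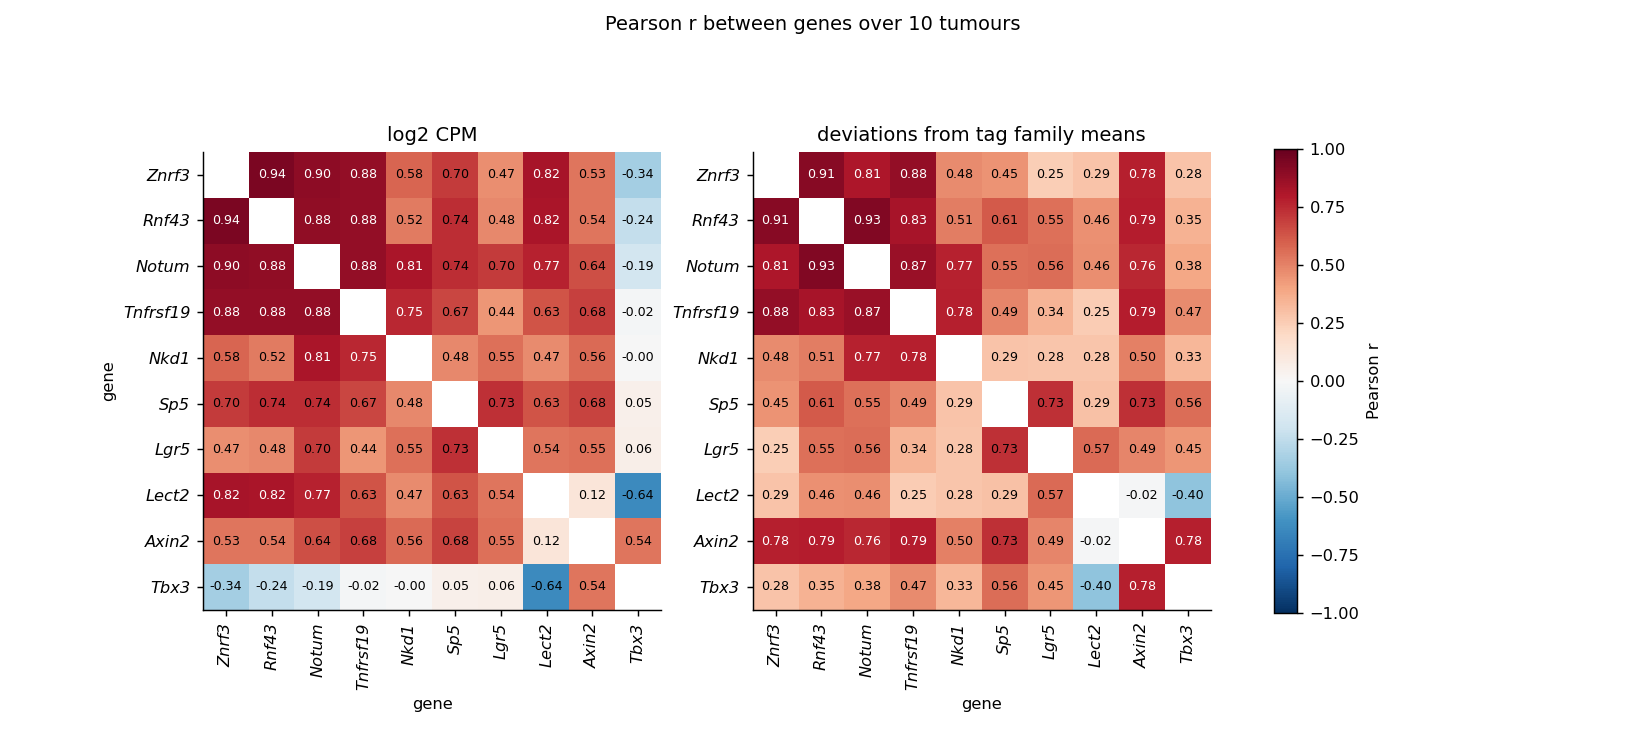
Pearson r for each pair of the 10 genes over 10 tumours, on log2 CPM (left) and on deviations from the tag family means (right); red is positive and blue negative. Znrf3, Rnf43, Notum and Tnfrsf19 form a dark block in both, with r of at least 0.88 on the left and 0.81 on the right, and Tbx3 and Lect2 are the most negative pair in both.

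Axin2, Notum, Znrf3 and Rnf43 all lie on chromosome 11. The median shift of the 1013 genes tested on that chromosome ran from -0.12 in tumour 09 to 0.25 in tumour 13 on the log2 scale. With the shift of its own chromosome subtracted from each gene, the block of Znrf3, Rnf43, Notum and Tnfrsf19 kept r between 0.83 and 0.93. Axin2 and Rnf43 then had r = 0.40 instead of 0.54, and Axin2 and Tbx3 had r = 0.83 instead of 0.54.

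Whether the other targets rose with Axin2 was tested with edgeR's quasi-likelihood test of a slope on the Axin2 level across all genes. All 9 slopes were positive, with a median of 0.86 on the log2 scale per log2 unit of Axin2 against 0.02 for all genes tested. None of the 9 passed at a Benjamini-Hochberg adjusted p of 0.05, with adjusted p between 0.647 and 0.925, and 0% of the 12461 genes tested did. DESeq2's Wald test called 28 genes (0.225%), none of them among the 9. At an unadjusted p of 0.05, 5 of the 9 had a positive slope, where 3.87% of all genes did. Since Axin2 was measured in the same libraries, errors in its level enter every slope.

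Sp5 had a slope of 0.85 ± 0.28 (SE; edgeR, adjusted p = 0.647), Notum of 1.09 ± 0.36 (edgeR, adjusted p = 0.667) and Tnfrsf19 of 0.95 ± 0.33 (edgeR, adjusted p = 0.688). Lgr5 had 0.86 ± 0.34 and Rnf43 had 1.07 ± 0.45, and these complete the 5. Nkd1 had the steepest slope, 1.26 ± 0.58, with a wide error. Znrf3 had 0.62 ± 0.29, Tbx3 had 0.42 ± 0.23 (0.19 without tumour 05 and 0.28 without tumour 09) and Lect2 had 0.36 ± 0.46. The 5 genes at an unadjusted p of 0.05 became 2 (Tnfrsf19 and Tbx3) without tumour 07, 3 (Notum, Sp5 and Tnfrsf19) without tumour 09 and 4 (Notum, Znrf3, Rnf43 and Tnfrsf19) in the 7 tumours with few RNAs without a poly(A) tail. Without tumour 07 the slope of Sp5 was 0.44, that of Lgr5 0.41 and that of Lect2 -0.078, and in the 7 tumours Sp5 had 0.44 and Lgr5 0.57. Rnf43 kept a slope of 1.04 and Notum one of 0.86 without tumour 07. Without tumour 09 Rnf43 had 1.24 and Lgr5 0.78. With tag family as a factor the genes at an unadjusted p of 0.05 were 6, with Znrf3 and Tbx3 joining and Lgr5 leaving.

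The level of Ctnnb1, the gene of beta-catenin itself, ran from 256 CPM in tumour 11 to 543 CPM in tumour 07. Counts per gene do not show the floxed exon, so the level does not report on its loss. Of the 10 genes, 9 had a positive slope on Ctnnb1 with a median of 0.30 against -0.03 for all genes, and none passed at an adjusted p of 0.05, as 0% of the 12461 genes tested did (26, or 0.209%, by DESeq2, none of them among the 10). At an unadjusted p of 0.05 only Nkd1 passed, with a slope of 1.37 ± 0.54 (SE; edgeR, adjusted p = 0.875), where 2.66% of all genes did with a positive slope and 3.02% with a negative one. Without tumour 07 none passed and 5 of the 10 slopes were positive, with a median of -0.071, none passed without tumour 10 or without tumour 12, with slopes of 1.19, 1.13 and 1.15 for Nkd1 in these 3 settings, and 3 passed without tumour 11 (Nkd1, Notum and Tnfrsf19), with a median of 0.74 and a slope of 2.39 for Nkd1. With tag family as a factor none passed, with a slope of 1.22 ± 0.57 for Nkd1, and none passed in the 7 tumours with few RNAs without a poly(A) tail, where 5 of the 10 slopes were positive, the median was -0.041 and Nkd1 had 1.09. Among blood markers 4 of 4 tested had a positive Ctnnb1 slope at an unadjusted p of 0.05, and among endothelial markers 3 of 7. The part of blood and vessels in the slopes was not tested.

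**Figure D3:**
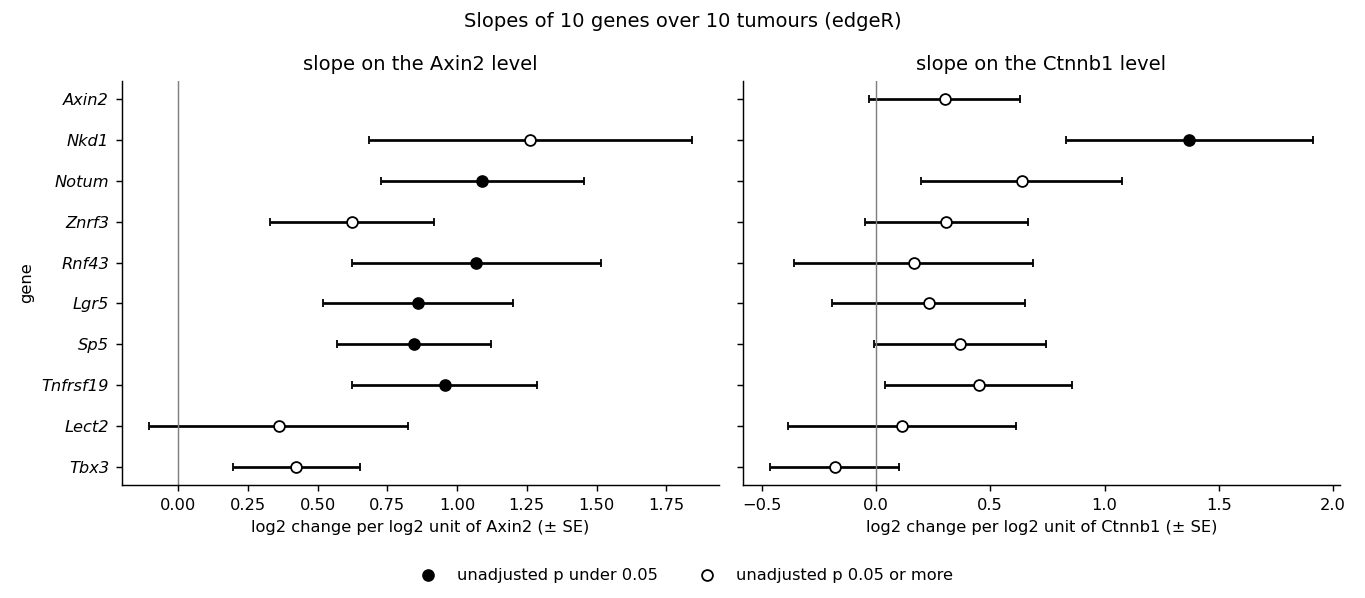
Slope ± SE (edgeR) of each gene on the Axin2 level (left) and on the Ctnnb1 level (right), in log2 units per log2 unit, over 10 tumours. Filled points have an unadjusted p under 0.05. All 9 slopes on Axin2 are above 0, from 0.36 (Lect2) to 1.26 (Nkd1), and on Ctnnb1 only Nkd1 is filled.

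Lect2 was low in the RMH4 tumours. The RMH4 tumours had 223, 125 and 182 CPM of Lect2, below every one of the other 7, which ran from 319 to 593 CPM. Znrf3 was the other gene without overlap, with 49.5, 39.7 and 32.9 CPM in the RMH4 tumours and from 50.6 to 88.7 CPM in the rest. Such a separation with RMH4 below held for 2.8% of all 12462 genes and for 2 of these 10. Rnf43 had a mean of 86.3 ± 23.7 CPM (SD, n = 3) in RMH4, 201 ± 76.2 CPM (n = 2) in RMH18 and 199 ± 64.8 CPM (n = 5) in RMH35, with tumour 09 at 99.99 CPM inside the RMH4 range.

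In edgeR's test across the 3 families none of the 10 genes passed at an adjusted p of 0.05, where 0.00802% of the 12462 genes tested did. Lect2 came nearest, 1.16 higher on the log2 scale in RMH35 than in RMH4 and 1.47 higher in RMH18 (edgeR, adjusted p = 0.169). At an unadjusted p of 0.05, 5 genes passed with RMH35 above RMH4 (Notum, Znrf3, Rnf43, Lgr5 and Lect2), where 6.45% of all genes did, and 7.51% with RMH35 below RMH4. The test covers all 3 families, so its p need not rest on RMH35 and RMH4. For Lgr5 the difference from RMH4 was 0.15 in RMH35 and 0.96 in RMH18. The 5 genes became 3 without tumour 06 (Notum, Znrf3 and Lect2). Rnf43 then differed between RMH35 and RMH4 by 1.07 in place of 1.21, and Lgr5 by 0.16 in place of 0.15. Leaving out tumour 07 leaves 1 tumour in RMH18. The difference of RMH18 from RMH4 was then 0.99 in place of 1.31 for Notum and 0.49 in place of 0.96 for Lgr5. By DESeq2's likelihood ratio test Lect2 (adjusted p = 0.0011), Znrf3 (adjusted p = 0.0331) and Rnf43 (adjusted p = 0.0363) passed, as did 4.08% of the 12462 genes. The mean of Axin2 was 155 ± 47.6 CPM (n = 3) in RMH4 and 154 ± 41.0 CPM (n = 5) in RMH35, and Tbx3 had its highest mean, 185 ± 56.9 CPM, in RMH4, from levels of 153, 250.4 and 151 CPM. Without tumour 05 the difference of Tbx3 between RMH35 and RMH4 was -0.047 in place of -0.33 on the log2 scale. Among cell type markers, at an unadjusted p of 0.05 (edgeR), RMH35 was below RMH4 for 2 of 7 endothelial markers (Kdr and Stab2). The median difference over the 7 was -0.74. The same held for 1 of 8 hepatocyte markers (Fgb) and 1 of 4 macrophage markers (Cd68). The medians of those 2 lists were positive, at 0.33 and 0.036. Both tested RNAs without a poly(A) tail (Rpph1 and Rmrp) were lower too, and blood markers had 1 lower (Hba-a1) and 1 higher (Alas2). Their part in the family differences was not tested. Tumours 05 and 06 carry both an RMH4 tag and many RNAs without a poly(A) tail, so for those 2 tumours family and library cannot be told apart.

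**Figure D4:**
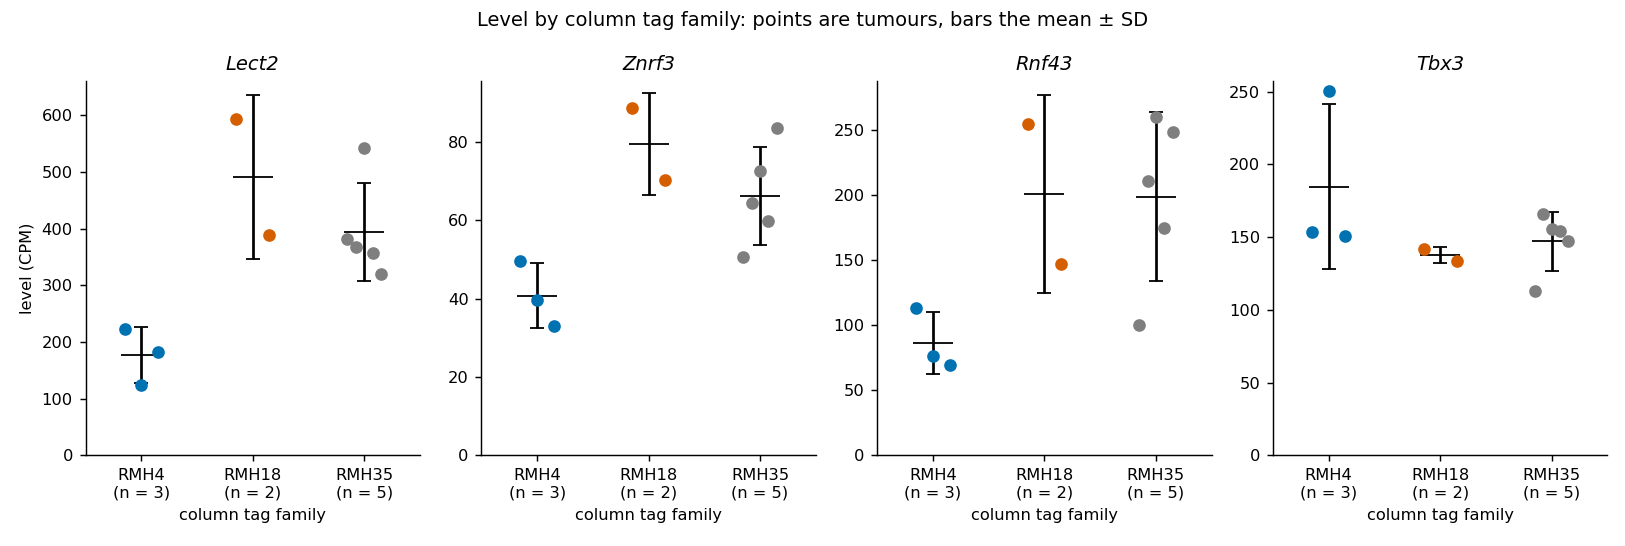
Level (CPM, axis from 0) of Lect2, Znrf3, Rnf43 and Tbx3 by column tag family. Points are tumours and bars the mean ± SD. The 3 RMH4 tumours lie below all others for Lect2 and Znrf3, and the highest Tbx3 point, 250.4 CPM, is an RMH4 tumour.

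Around these genes, no other gene of 8 lists of the pathway passed at an adjusted p of 0.05 in edgeR's slope on Axin2. The counts of these lists at an unadjusted p of 0.05 stand beside 3.87% of all genes with a positive slope and 2.85% with a negative one. Of 25 Wnt ligands, R-spondins and their helpers, 5 were tested and none had an unadjusted p under 0.05. Wnt4 was the most abundant per length, at 212 ± 118 CPM (SD, n = 10), and ligands such as Wnt3, Wnt3a and Rspo2 had no counts in any tumour, which allows up to 0.257 CPM in the shallowest library (3 counts). Of 10 receptors tested 1 had a positive slope at an unadjusted p of 0.05, Fzd4, and Lrp5 was the most abundant per length, at 219 ± 57.0 CPM. Of 15 genes of the destruction complex and Dishevelled, 1 had a positive slope (Dvl2) and 1 a negative one (Tnks2), and Ctnnb1 was the most abundant. Of 15 TCF factors and cofactors, 2 had a positive slope, Lef1 (1.10 per log2 unit of Axin2) and Bcl9l, the latter also the most abundant per length.

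None of the 5 other inhibitors tested had an unadjusted p under 0.05, and Tmem131l was the most abundant per length. Of 9 targets known from other tissues 1 did, again Lef1, which stands on both lists. Jun was the most abundant of these per length, at 288 ± 324 CPM. Of 13 pericentral targets of healthy liver tested, 9 had a positive slope with a median of 0.27, and 1, Gulo, an enzyme of vitamin C synthesis, had an unadjusted p under 0.05 (slope 0.70), where 3.87% of all genes had so with a positive slope. The count was 5, with 12 positive slopes and a median of 0.42, without tumour 05, it was 2 without tumour 12 and 0 without tumour 07 or tumour 09, and it was 3 with a median of 0.47 in the 7 tumours with few RNAs without a poly(A) tail and 3 by DESeq2. Cyp2e1, the most abundant of them per length, had a slope of 0.13 and Glul, the glutamine synthetase used to mark beta-catenin activity in liver, one of 0.03.

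The periportal genes had slopes of a single sign, while the pericentral slopes were of both signs. All 9 tested had a negative slope on Axin2, with a median of -2.16 against 0.02 for all genes, and 4 had an unadjusted p under 0.05, where 2.85% of all genes had so with a negative slope. These were Cps1 and Ass1, enzymes of the urea cycle, Hsd17b13, a lipid droplet enzyme, and Aldh1b1, a mitochondrial aldehyde dehydrogenase. Cps1 ran from 4.55 CPM in tumour 05 to 219 CPM in tumour 12, with a slope of -4.44 ± 0.95 (SE). The next highest levels of Cps1 were 201 CPM in tumour 09 and 182 CPM in tumour 08. Pck1, the most abundant of them per length, ran from 16.1 CPM in tumour 07 to 396 CPM in tumour 08.

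The count of 4 was between 4 and 6 when each tumour was left out in turn, with all slopes negative each time, and 7 of 9 with tag family as a factor. The median slope was -3.35 without tumour 09 and -1.38 without tumour 12. DESeq2's Wald test called 2 of the 9 at an adjusted p of 0.05, Cps1 (adjusted p = 2.24e-05) and Aldh1b1 (adjusted p = 6.27e-05), where it called 0.225% of all genes. The stellate cell and fibroblast markers had 4 of 8 negative slopes at an unadjusted p of 0.05, and the summed stellate markers were highest in tumour 09, which had the least Axin2. Of the 2 cholangiocyte markers tested, Spp1 had a negative slope at an unadjusted p of 0.05 (-2.59) and Krt19 had 0.14, and the sum of the list was also highest in tumour 09, at 146 CPM. The part of both cell types in the periportal slopes, or in the slopes of the 9 targets on Axin2, was not tested.

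**Figure D5:**
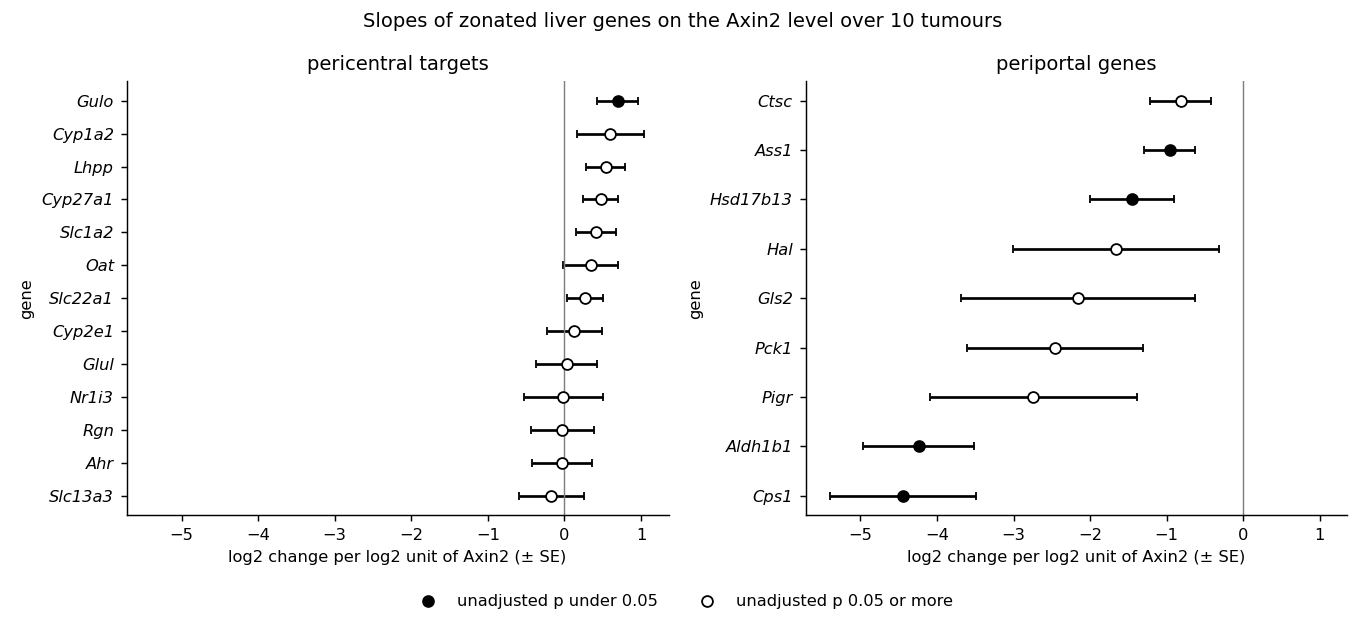
Slope ± SE (edgeR, log2 units per log2 unit of Axin2) over 10 tumours for 13 pericentral targets (left) and 9 periportal genes (right), on one scale. Filled points have an unadjusted p under 0.05. Pericentral slopes lie between -0.17 and 0.70, and periportal slopes between -4.44 and -0.82.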

How the data were processed

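RNA of whole tumours was read with a stranded mRNA kit and paired-end sequencing. The authors deposited 1 table of raw read counts per gene, not normalised. The submitters' processing notes list TopHat2, HTSeq and GRCm38, while the study's methods name other tools for RNA-seq in general, and whether counting used strand is not given in the sources used here. Overlapping genes held up to 34.4% (1110028F11Rik, against Rnf43), 8.64% (Tbx3os1, against Tbx3), 7.55% (Fbxl21, against Lect2) and 1.80% (A930009A15Rik, against Lgr5) as many counts as the gene itself, and Gm41167 overlaps Tnfrsf19. Of 19 columns, 9 could not be matched to 1 sample and were not used. Symbols came from GENCODE M39 by stable ID (87.3% of IDs), coordinates and promoters from RefSeq GRCm38.p6.

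Genes with low counts were removed with edgeR's filterByExpr (minimum count 10), leaving 12462. TMM factors ran from 0.927 to 1.12, and log2 CPM used a prior count of 2. The common biological variation (BCV) was 0.340. Slopes on the log2 CPM of Axin2 or Ctnnb1, and differences between tag families, were tested with edgeR's quasi-likelihood test (edgeR 4.0.16, R 4.3.3) and Benjamini-Hochberg adjustment over all genes; DESeq2 1.42.0 was an alternative. The tests were checked on simulated counts. Python 3.11.15, numpy 2.4.6, pandas 2.3.3 and matplotlib 3.10.9 made the summaries. Tag families were read from column names and are not groups given by the labels. The genes and lists were chosen with earlier results of these data known. All 10 genes are named, with Ctnnb1 and Glul as references; of each list, the most abundant gene per length is named, and any gene past an adjusted p of 0.05 by edgeR in either slope, of which there was none; and for each gene those with the highest r. Other genes were named after their values were seen. A gene of the periportal list is not reported here.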

Additional observations from a re-analysis of the deposited data

Results flagged for a closer look

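Over the 10 tumours, 2 of the 10 genes had 1 tumour far from the rest by Dixon's ratio, the gap between an extreme value and its neighbour divided by the whole range of log2 CPM, compared with its 95% critical value for 10 samples. Chance passes that value in about 5% of groups of normal values. The share of all genes that passed it in these libraries was not counted, so 2 of 10 is not set apart from other genes. Sp5 stood high in tumour 07 with a ratio of 0.508, at 97.0 CPM against at most 54.6 CPM in the other 9 tumours. Tbx3 stood high in tumour 05 with a ratio of 0.518, at 250.4 CPM against at most 166 CPM. Both libraries were among the 3 with many RNAs without a poly(A) tail, whose part in the levels was not tested.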

How the results depend on the processing

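No paired analysis was possible because the control columns could not be matched to samples, which leaves 1 group. The counts of genes past an adjusted p of 0.05 depended on the tool. In place of 0 genes for the Axin2 slope DESeq2's test called 28, in place of 0 for the Ctnnb1 slope 26, and in place of 1 between tag families 508. Without the low-count filter 27 genes passed between families. Leaving out each tumour in turn gave from 0 to 1 genes for Axin2, 0 for Ctnnb1, and from 0 to 175 between families, with 86 without tumour 04, 175 without tumour 09, 5 without tumour 08, 3 without tumour 07 and 0 without tumour 05, 06, 10, 11 or 13. The median r over the 45 pairs was 0.42 without the 2 tumours farthest from the median Axin2 level and ran from 0.47 to 0.70 when each tumour was left out. The causes were not tested. Slopes on Ctnnb1 turned sign most often. In the 7 tumours with few RNAs without a poly(A) tail, an alternative chosen after seeing the data, they were -0.11 for Znrf3, -0.40 for Rnf43, -0.62 for Lgr5, -0.38 for Sp5, -0.68 for Lect2 and 0.029 for Tbx3, and with tag family as a factor Lgr5 had -0.43. With each tumour left out they ran from -0.21 to 0.83 for Rnf43, from -0.58 to 0.75 for Lgr5, from -0.35 to 0.63 for Sp5 and from -0.47 to 0.73 for Lect2. On Axin2 only the slope of Lect2 turned sign, from -0.078 to 0.87 with each tumour left out. The difference of RMH35 from RMH4 was 0.0084 for Axin2 without the low-count filter, and with each tumour left out it ran from -0.20 to 0.24 for Axin2, from -0.088 to 0.82 for Nkd1 and from -0.086 to 0.28 for Lgr5. DESeq2 size factors, the prior count, a variance stabilising transformation and thinning to the shallowest library moved no SD of the 10 genes beyond its error, and DESeq2 size factors and total counts moved no mean level beyond its SD. With 10 tumours of 1 group, tag, mouse and library preparation cannot be told apart for tumours that share them.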

Other observations

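The genes whose log2 CPM followed each target most closely over the 10 tumours, by Pearson's r among the other 12461 genes, were mostly outside the Wnt pathway. For Axin2 they were Neurl2 (r = 0.92), Zkscan17 (r = 0.91), Pi4kb (r = 0.91), Snx21 (r = 0.91) and Gm8494 (r = 0.91). The closest gene was Hsd17b11 for Nkd1 (r = 0.95), Scn4b for Notum (r = 0.98), Zfp354a for Znrf3 (r = 0.98), Sh3glb2 for Rnf43 (r = 0.98) and Tmem259 for Lgr5 (r = 0.93). It was Gm10263 for Sp5 (r = 0.97), Slc23a2 for Tnfrsf19 (r = 0.95), 2810001G20Rik for Lect2 (r = 0.94) and Osbpl2 for Tbx3 (r = 0.97). Each r was picked as among the highest of 12461 over only 10 tumours, where unrelated genes can reach high values, and no link was tested. The lowest of these 14 genes were Neurl2, Gm8494, 2810001G20Rik, Zfp354a and Gm10263, at 7.73, 4.23, 3.04, 3.03 and 2.27 CPM on average.

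Glul did not share the pattern of the 10 targets, and mouse Myc ran against most of them. Glul had r between -0.37, with Lect2, and 0.36, with Tbx3. Counts of mouse Myc had r = -0.72 with Lect2, -0.56 with Rnf43, -0.55 with Notum, -0.54 with Znrf3 and -0.51 with Tnfrsf19. They had r = -0.41 with Nkd1, -0.33 with Lgr5, -0.30 with Sp5, 0.020 with Axin2 and 0.64 with Tbx3. Mouse Myc was highest in tumour 05, at 137 CPM, the tumour with the most Tbx3 and the least Lect2. Its r without that tumour was not computed.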
